A study of Mus musculus with 4 samples.

Results

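The 32 genes described here build, sense, move, store and export cholesterol. They were listed by name for these functions, by a rule that uses no measured value but was drawn up with earlier results of these data known, and all 32 were found among the 55450 genes of the deposited matrices. By role they were 18 enzymes of synthesis, 4 regulators (Srebf2, Scap, Insig1, Insig2), 4 genes of uptake and transport (Scarb1, Npc1, Npc2, Stard4), 2 of storage (Soat1, Lipe), 2 efflux pumps (Abca1, Abcg1) and the 2 liver X receptors (Nr1h2, Nr1h3). The study was a droplet single-cell RNA survey (10x Chromium 3′ chemistry) of dissociated mouse testis, with 2 libraries of a high-fat diet group (HFD) and 2 of a group on normal diet (ND). Strain, age, length of feeding and composition of the diets are not given in the sources used here, and neither is whether each library came from its own mouse, so all p-values measure the spread between these libraries, which may be technical.

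Cholesterol is made from acetyl-CoA through mevalonate, squalene and lanosterol, and the enzymes of this route are switched on together by the transcription factor SREBP2, the product of Srebf2. SCAP carries SREBP2 to the site where it is activated, INSIG1 and INSIG2 hold SCAP back when sterols are plentiful, and Insig1 is itself a target of SREBP2. Liver X receptors respond to oxidised sterols and switch on the pumps ABCA1 and ABCG1. Leydig cells, the steroid-making cells between the seminiferous tubules, turn cholesterol into testosterone and obtain it by synthesis, by uptake through SCARB1 and from stored esters. Germ cells run part of the same route, and sterol intermediates formed just after lanosterol are known to be plentiful in testis.

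Each library held 13122 to 14468 cells after filtering, from 143748262 to 154221188 UMIs (unique molecular identifiers, 1 per captured RNA molecule) before it. Cells were clustered without the 32 genes among the variable genes, and clusters were named by likeness to marker genes. Leydig-like cells were named by their score on the 6 Leydig genes Insl3, Star, Cyp17a1, Cyp11a1, Hsd3b1 and Hsd3b6, so the level of these genes is no test of the label. These 6 genes summed to 15920 to 20900 CPM (UMIs of a gene scaled to a common total per class and library) in Leydig-like cells and to 13.5 to 17.3 CPM in round spermatid-like cells. They summed to 58.9 to 155 CPM in macrophage-like and to 103 to 136 CPM in fibroblast or peritubular-like cells. The 9 Sertoli markers summed to 1887 to 2185 CPM in Leydig-like cells and to 2296 to 2808 CPM in Sertoli-like cells. Only 5 to 7 of the 9 were detected per library in Leydig-like cells, against all 9 in Sertoli-like cells, so the first sum comes from part of the list. The part of Sertoli RNA in the levels below was not tested. Leydig-like cells numbered 211 and 240 in the HFD libraries and 366 and 367 in the ND libraries, which was 1.61% (95% exact binomial interval 1.40 to 1.84) and 1.78% (1.56 to 2.01) of cells against 2.53% (2.28 to 2.80) and 2.65% (2.39 to 2.94). These intervals cover counting error only. An unnamed sub-cluster of cells stood apart by library, HFD 1 holding 103 of its 168 cells, HFD 2 18, ND 1 4 and ND 2 43, and 42 to 65 cell barcodes were shared between any pair of libraries.

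Promoters were available from RefSeq (GRCm38.p6) for 25 of the 32 genes, as windows of 300 bases with 250 before and 50 after the start. Stretches of 150 bases are shown for 5 genes, each ending at the more upstream of the gene's RefSeq start and its start in GENCODE M21 (88 bases before the RefSeq start for Srebf2, 49 for Insig1, 36 for Hsd17b7 and 0 for Hmgcs1 and Insig2), because they bracket the diet results: Hmgcs1 and Srebf2 hold a sterol regulatory element-like motif, Hsd17b7 had the largest fall among the enzymes, Insig1 the largest fall of all, and Insig2 did not fall. Capitals mark CCAAT on either strand (read as ATTGG on the opposite one) and TCACNCCA, and each line runs 5′ to 3′ on the strand of the gene.
Hmgcs1, chr13:119690201-119690350, plus strand: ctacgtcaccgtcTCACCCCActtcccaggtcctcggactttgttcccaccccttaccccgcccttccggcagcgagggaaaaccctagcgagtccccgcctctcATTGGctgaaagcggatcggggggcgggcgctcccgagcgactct
Srebf2, chr15:82147031-82147180, plus strand: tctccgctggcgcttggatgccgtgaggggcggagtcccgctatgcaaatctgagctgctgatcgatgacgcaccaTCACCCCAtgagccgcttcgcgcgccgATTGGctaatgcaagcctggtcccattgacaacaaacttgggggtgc
Hsd17b7, chr1:169969242-169969391, minus strand: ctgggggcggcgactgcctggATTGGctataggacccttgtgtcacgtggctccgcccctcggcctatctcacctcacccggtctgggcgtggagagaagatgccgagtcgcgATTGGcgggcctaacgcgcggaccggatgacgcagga
Insig1, chr5:28071213-28071362, plus strand: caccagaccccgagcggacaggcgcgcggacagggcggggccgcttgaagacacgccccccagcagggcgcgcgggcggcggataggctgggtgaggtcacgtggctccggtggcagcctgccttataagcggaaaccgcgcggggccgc
Insig2, chr1:121332590-121332739, minus strand: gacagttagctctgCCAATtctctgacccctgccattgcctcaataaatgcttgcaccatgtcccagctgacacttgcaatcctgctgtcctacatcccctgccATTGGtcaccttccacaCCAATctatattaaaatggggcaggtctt

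Over the whole windows and both strands, CCAAT was present for 19 of the 25 genes and for 14 of the 15 synthesis enzymes with a window, against 41.1% of 27025 genes in the table. GGGCGG was present for 22 of 25, against 38.2%. The core of the sterol regulatory element, TCACNCCAC, was present for 1 gene, Hmgcs1, against 1.44%. The shorter TCACNCCA, which overlaps that core and was added after the first search, was present for 3 genes, Hmgcs1, Msmo1 and Srebf2, against 4.97%. The site CAAGGTCA was present for 1, Dhcr7, against 1.76%, and the direct repeat with spacer known for liver X receptors for 0, against 0.0148%. These are matches of letters in a window, not sites shown to be bound.

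Leydig-like cells had the highest level of 21 of the 32 genes among the 10 named classes. Levels are CPM of the UMIs summed per class and library, given here as means over the 4 libraries. The same cells were used to form the classes, so these levels are a description, and each gene is compared between classes, not with other genes. Msmo1, the methyl sterol oxidase that acts after lanosterol demethylation, stood at 403 CPM in Leydig-like cells and at 27.9 CPM in spermatogonia-like cells, its next class, and 76.8% of all its UMIs in kept cells came from Leydig-like cells. Abca1, the pump that hands cholesterol to apolipoproteins, stood at 408 CPM in Leydig-like and 204 CPM in macrophage-like cells, with 76.7% of UMIs from Leydig-like cells. Ebp, the sterol isomerase, had 74.0% of its UMIs there, Dhcr7, the last reductase, 59.5%, Hsd17b7, the 3-keto-sterol reductase, 54.4%, and Scap 54.0%. Leydig-like cells supplied only 1.07% to 1.60% of all UMIs of a library. For 19 of these 21 genes the Leydig-like level was first in all 4 libraries. Scap was first in 3 libraries and Insig1 in 2, and for both the values overlapped those of spermatogonia-like cells, at means of 98.4 against 74.5 CPM for Scap and 65.0 against 49.0 CPM for Insig1.

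**Figure D1:**
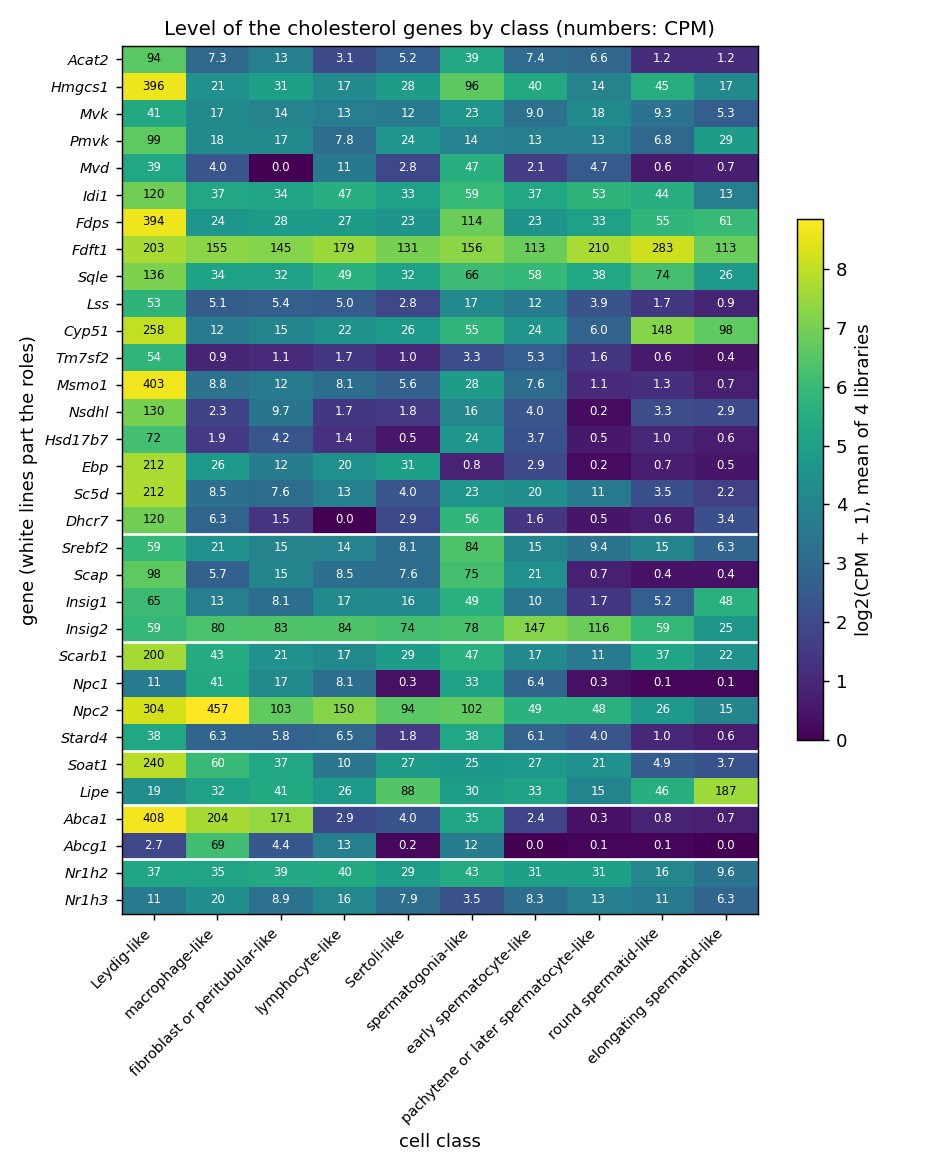
Mean level of each gene (rows, grouped by role from synthesis at the top to liver X receptors at the bottom) in the 10 named cell classes (columns), over 4 libraries; colour is log2(CPM + 1) and the numbers are CPM. The Leydig-like column is the brightest for 21 of 32 genes. From Tm7sf2 to Dhcr7 the enzymes are nearly dark in pachytene or later spermatocyte-like and round spermatid-like cells, except Sc5d in the former.

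The other 11 genes had other patterns. Macrophage-like cells had the highest level of 4: Npc2, which carries cholesterol out of lysosomes together with Npc1, at 457 CPM against 304 CPM in Leydig-like cells; Npc1 at 40.7 CPM; Abcg1, an efflux pump, at 68.6 CPM against 12.7 CPM in lymphocyte-like cells; and Nr1h3, the liver X receptor alpha, at 20.3 CPM. For Npc1 and Nr1h3 the first and second class overlapped between libraries. Spermatogonia-like cells, of which there were only 47 to 65 per library, had the highest means of Mvd, Srebf2, Stard4 and Nr1h2, and all 4 overlapped the next class. Insig2 was highest in early spermatocyte-like cells, at 147 CPM against 116 CPM in pachytene or later spermatocyte-like cells, without overlap.

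In round spermatid-like cells Fdft1 stood above its Leydig-like level and the enzymes after Cyp51 far below theirs. Fdft1, which makes squalene, was highest there at 283 CPM, against 203 CPM in Leydig-like cells. Cyp51, the lanosterol demethylase, stood at 6.03 CPM in pachytene or later spermatocyte-like cells, 148 CPM in round and 98.1 CPM in elongating spermatid-like cells. The 7 enzymes that act after Cyp51 stood between 53.8 and 403 CPM in Leydig-like cells. In round spermatid-like cells the 6 other than Sc5d stood between 0.557 CPM (Tm7sf2) and 3.29 CPM (Nsdhl), and Sc5d stood at 3.5 CPM. Levels this low cannot be told apart from free RNA of other cells taken up in droplets. Lipe, the hormone-sensitive lipase that frees cholesterol from esters, was highest in elongating spermatid-like cells at 187 CPM, with 87.7 CPM in Sertoli-like and 19.5 CPM in Leydig-like cells. The Sertoli-like cells carried much spermatid RNA: the 9 elongating spermatid markers summed to 75660 to 95990 CPM there and to 161700 to 171900 CPM in elongating spermatid-like cells, whereas the 9 Sertoli markers summed to 2296 to 2808 CPM in Sertoli-like cells. The part of that RNA in the Lipe level was not tested. Insig1 also had a spermatid pattern, at 48.3 CPM in elongating and 5.21 CPM in round spermatid-like cells.

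In Leydig-like cells, most cholesterol genes had a lower share of the UMIs in HFD than in ND libraries. These levels are shares, not amounts per cell. Leydig-like cells had a median of 7136 and 6038.5 UMIs in HFD 1 and HFD 2 and of 5887 and 5867 in ND 1 and ND 2. Whether amounts per cell differed was not tested. Of the 31 genes tested (Abcg1 was too low), 16 were lower on HFD and 0 were higher at an adjusted p under 0.05 (edgeR quasi-likelihood test on summed UMIs, adjusted over all 11672 genes tested in these cells). Over all genes the same test called 2.79% lower and 2.64% higher, and 3.95% lower among genes with a mean of at least 20 CPM. At an unadjusted p under 0.05, 23 of the 31 were lower and 0 higher, where 8.88% and 9.2% of all genes were. Both HFD libraries lay below both ND libraries for 23 of the 31, against 23.9% of all genes, and above for 1 (Insig2), against 23.5%. The median log2 ratio of HFD over ND was -0.40 for the 31 genes and 0.00 for all genes; ratios ran from -1.37 (Insig1) to 0.14 (Insig2).
By role, 11 of 18 synthesis enzymes fell (median -0.44), 2 of 4 regulators (-0.38), 2 of 4 genes of uptake and transport (-0.22), 1 of 2 storage genes (-0.59), 0 of 1 efflux genes tested (-0.11) and 0 of 2 liver X receptors (-0.06).

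These counts depend on how the Leydig-like cells and the spread are taken, and the calls over all genes changed with them. DESeq2 gave no adjusted p for Insig1, Scap, Acat2, Mvd, Lss, Hsd17b7 and Stard4, which therefore count as not called by it. The number lower was 7 with DESeq2, where 0.548% of all genes, counted in the same way, were lower, and 15 with limma (2.55%). It was 7 without HFD 1 (0.978%), 2 with called doublets kept (0.483%), 6 with the 32 genes allowed in clustering (0.885%) and 1 with cells gated on at least 4 of the 6 Leydig markers (0.252%). Medians in these settings stayed between -0.50 and -0.33. No gene called in Leydig-like cells changed direction in any setting that gave it an adjusted p. The setting with the 32 genes allowed also let in the related gene lists given below, and 2 of the 32 were then among the variable genes. With the sub-cluster rich in HFD 1 cells left out, a comparison added after seeing the data, the count with the genes allowed in clustering was 16 (2.81% of all genes) and that with the gate was 1 (0.222%).

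Germ-cell RNA was also present in Leydig-like cells and differed with diet. The 10 pachytene or later spermatocyte markers summed to 1258 and 1172 CPM in HFD 1 and HFD 2 and to 853 and 936 CPM in ND 1 and ND 2, next to 4693 to 4813 CPM in that germ-cell class itself, and 5 of the 10 rose (Aurka, Ccna1, Tbpl1, Ccnb2, Ybx2). The 9 round spermatid markers summed to 314 to 334 CPM against 296 to 304 CPM, with 0 of 9 called, and the 9 elongating spermatid markers overlapped between diets (5007 to 7094 against 5092 to 6101 CPM). The 9 early spermatocyte markers summed to 261 and 193 CPM in HFD 1 and HFD 2 and to 154 and 178 CPM in ND 1 and ND 2, and 1 of the 4 tested rose (Sycp1). Of the tested markers of the other lists, 1 of 4 for Sertoli cells (Amhr2), 1 of 3 for fibroblast or peritubular cells (Dcn) and 1 of 2 for spermatogonia (Kit) fell. Of the 6 Leydig markers, 3 fell (Star, Cyp17a1, Hsd3b6), and their median log2 ratio was -0.33. With the cells above the median share of germ-cell marker UMIs left out, an alternative added after seeing the data, 5 genes were lower (0.838% of all genes) and the median was -0.28. How far these marker differences enter the values below was not tested beyond that.

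**Figure D2:**
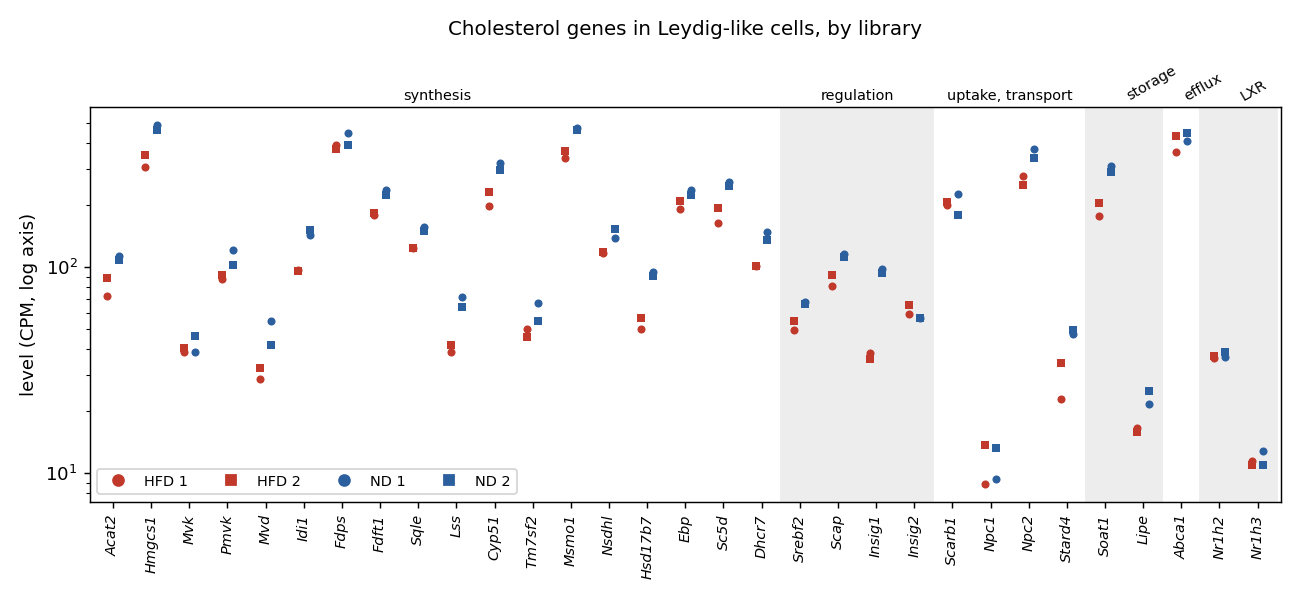
Level of each of the 31 tested genes (CPM, log axis) in Leydig-like cells of the 4 libraries, HFD in red and ND in blue, circles for library 1 and squares for library 2; LXR stands for liver X receptors. Both red points lie below both blue points for 23 genes, with the widest gap for Insig1, and Insig2 is the only gene with both red points above.

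Levels in the diet comparisons are CPM after TMM scaling of the libraries. Among the regulators, Insig1, the sterol-responsive anchor that keeps SCAP in the endoplasmic reticulum, stood at 38.2 and 35.7 CPM in HFD 1 and HFD 2 and at 98.3 and 93.5 CPM in ND 1 and ND 2. Both HFD libraries were well below both ND libraries. HFD levels were 38.5% of ND levels, for a log2 ratio of -1.37 ± 0.15 (SE) and an edgeR adjusted p of 3.6e-10. Insig1 was lower in all 18 other settings that gave it an adjusted p, between -1.54 and -1.11. Calls of a gene are counted here and below over such settings. For genes counted over 18, DESeq2 gave no adjusted p. Insig2, its relative, which is not known as a target of SREBP2, stood at 59.2 and 65.9 CPM on HFD and at 56.5 and 56.9 CPM on ND. The 2 diets did not overlap, but the log2 ratio of 0.14 (SE 0.15, edgeR adjusted p = 0.70) did not pass the test. Scap, the escort of SREBP2, stood at 80.8 and 92.0 CPM on HFD and 116 and 111 CPM on ND, for a log2 ratio of -0.40 ± 0.12 (SE) and an edgeR adjusted p of 0.042. Its call was lost in 12 of 18 other settings. Srebf2 itself had a log2 ratio of -0.36 ± 0.15 (SE) and an edgeR adjusted p of 0.17, with HFD libraries at 49.6 and 54.9 CPM and ND libraries at 67.8 and 65.9 CPM.

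At the head of the route, Acat2 (cytosolic acetoacetyl-CoA thiolase) stood at 72.6 and 88.5 CPM in HFD 1 and HFD 2 and at 114 and 108 CPM in ND 1 and ND 2, for a log2 ratio of -0.46 ± 0.13 (SE) and an edgeR adjusted p of 0.018. Hmgcs1 (HMG-CoA synthase, which makes the precursor of mevalonate) stood at 308 and 349 CPM on HFD and 489 and 464 CPM on ND, for a log2 ratio of -0.54 ± 0.09 (SE) and an edgeR adjusted p of 1.5e-05. Both genes were lower in both HFD libraries. The call was lost in 8 of 18 other settings for Acat2 and in 3 of 19 for Hmgcs1. Mvd (mevalonate diphosphate decarboxylase) stood at 28.6 and 32.3 CPM on HFD and 55.1 and 41.8 CPM on ND, for a log2 ratio of -0.67 ± 0.19 (SE) and an edgeR adjusted p of 0.022. For Idi1 (isopentenyl diphosphate isomerase) the HFD libraries were nearly alike at 97.4 and 96.1 CPM, below the ND libraries at 144 and 152 CPM, for a log2 ratio of -0.61 ± 0.12 (SE) and an edgeR adjusted p of 2.3e-04. Other settings lost the call of Mvd in 8 of 18 and that of Idi1 in 3 of 19. The 2 kinases between Hmgcs1 and Mvd did not pass, Mvk overlapping between diets at a log2 ratio of -0.11 and Pmvk standing at -0.32, nor did Fdps, which follows Idi1 and makes farnesyl diphosphate, at -0.13.

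At the steps from squalene to lanosterol, Fdft1 (squalene synthase) stood at 180 and 184 CPM in HFD 1 and HFD 2 and at 237 and 223 CPM in ND 1 and ND 2, for a log2 ratio of -0.34 ± 0.10 (SE) and an edgeR adjusted p of 0.027. This was the smallest ratio in size among the 16 called, and its call was lost in 11 of 19 other settings. Sqle (squalene epoxidase) had a log2 ratio of -0.31 with HFD libraries at 123 and 124 CPM and ND libraries at 156 and 150 CPM, and did not pass (edgeR adjusted p = 0.090). Lss (lanosterol synthase) stood at 38.8 and 41.9 CPM on HFD and 71.8 and 64.0 CPM on ND, for a log2 ratio of -0.75 ± 0.16 (SE) and an edgeR adjusted p of 0.0012. The call of Lss was lost in 4 of 18 other settings. Lss levels on HFD were 59.4% of those on ND, and those of Fdft1 79.1%.

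After lanosterol, Cyp51 stood at 199 and 233 CPM in HFD 1 and HFD 2 and at 322 and 295 CPM in ND 1 and ND 2, for a log2 ratio of -0.52 ± 0.10 (SE) and an edgeR adjusted p of 1.7e-04. Msmo1 stood at 338 and 364 CPM on HFD and 472 and 465 CPM on ND, for a log2 ratio of -0.42 ± 0.09 (SE) and an edgeR adjusted p of 8.6e-04. Both were lower in both HFD libraries, with HFD 1 the lowest. Hsd17b7 had the largest fall among the enzymes: 50.3 and 57.0 CPM on HFD against 94.9 and 90.6 CPM on ND, for a log2 ratio of -0.79 ± 0.14 (SE) and an edgeR adjusted p of 8.2e-05. Its call was lost in 2 of 18 other settings. Sc5d (the sterol C5-desaturase) stood at 164 and 193 CPM on HFD and 261 and 247 CPM on ND, for a log2 ratio of -0.51 ± 0.10 (SE) and an edgeR adjusted p of 3.8e-04. Dhcr7, which closes the route, stood at 102 and 101 CPM on HFD and 148 and 136 CPM on ND, for a log2 ratio of -0.49 ± 0.12 (SE) and an edgeR adjusted p of 0.0043. The call of Dhcr7 was lost in 9 of 19 other settings, and those of Cyp51, Msmo1 and Sc5d in 6 of 19 each. Tm7sf2, Nsdhl and Ebp, the other enzymes of this stretch, had both HFD libraries below both ND libraries at log2 ratios of -0.34, -0.31 and -0.20 without passing the test.

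**Figure D3:**
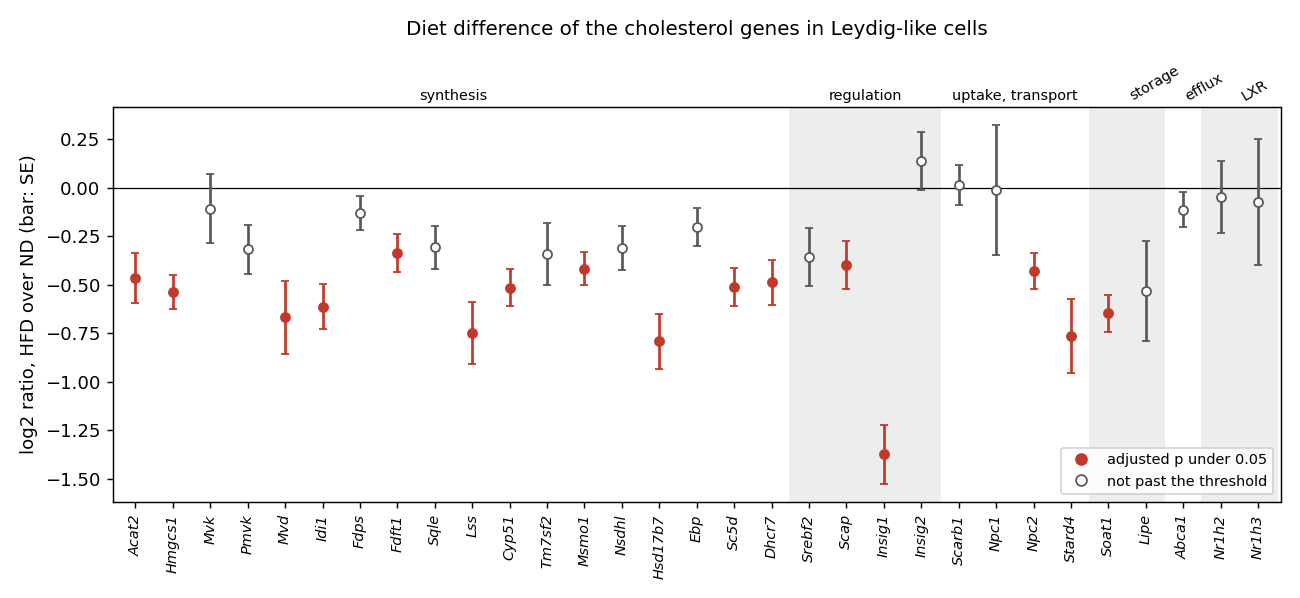
Log2 ratio of HFD over ND for the 31 tested genes in Leydig-like cells with its standard error, by role; filled red points have an edgeR adjusted p under 0.05 over all genes, and LXR stands for liver X receptors. The 16 filled points lie between -1.37 and -0.34, and Scarb1, Npc1, Nr1h2 and Nr1h3 lie near 0.

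Of the genes of uptake and transport, Npc2 and Stard4 fell and Scarb1 and Npc1 did not pass. Npc2 stood at 278 and 250 CPM in HFD 1 and HFD 2 and at 373 and 338 CPM in ND 1 and ND 2, for a log2 ratio of -0.43 ± 0.09 (SE) and an edgeR adjusted p of 0.0013. Stard4, a soluble sterol carrier that is itself sterol-regulated, stood at 22.9 and 34.3 CPM on HFD and 47.2 and 49.3 CPM on ND, for a log2 ratio of -0.76 ± 0.19 (SE) and an edgeR adjusted p of 0.0079. For both genes the diets did not overlap, and the call was lost in 6 of 19 other settings for Npc2 and in 7 of 18 for Stard4. Scarb1, the HDL receptor through which Leydig cells take up cholesteryl ester, stood at 200 and 208 CPM on HFD and 226 and 178 CPM on ND, so that both HFD libraries lay between the ND libraries (log2 ratio 0.01, SE 0.10). Npc1 was low, at 8.91 to 13.7 CPM over the 4 libraries, and overlapped.

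For storage, Soat1, which esterifies cholesterol, stood at 176 and 205 CPM in HFD 1 and HFD 2 and at 309 and 288 CPM in ND 1 and ND 2. Its log2 ratio was -0.65 (SE 0.10, edgeR adjusted p = 2.2e-06), and both HFD libraries were lower. Its call was lost in 3 of 19 other settings. The lipase Lipe, at 16.5 and 15.8 CPM on HFD and 21.6 and 25.1 CPM on ND, had a log2 ratio of -0.53 (SE 0.26) and did not pass. Neither the efflux pump nor the receptors passed the test: Abca1 stood at 363 and 434 CPM on HFD and 411 and 449 CPM on ND, overlapping at a log2 ratio of -0.11 (SE 0.09). Nr1h2 and Nr1h3 had log2 ratios of -0.05 (SE 0.18) and -0.08 (SE 0.33), also with overlap. A p that misses the threshold does not show that these levels were alike, and the SE of Nr1h3 leaves room for changes as large as those called elsewhere.

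Of 44 other genes of cholesterol handling, 37 were tested in Leydig-like cells, and 6 fell and 1 rose, where 2.79% and 2.64% of all genes did. Their median log2 ratio was -0.09. Those that fell included the sterol carrier Stard5, at a log2 ratio of -0.63, and Por, which supplies electrons to Cyp51 and Sqle, at -0.61. The gene that rose was Tmem97, a sterol-binding protein also known as the sigma-2 receptor, at 357 and 308 CPM on HFD and 247 and 269 CPM on ND (log2 ratio 0.37, SE 0.09, edgeR adjusted p = 0.0084).
Genes of 2 neighbouring lists also fell in these cells. In fatty acid synthesis 5 of 10 genes fell (median -0.40), with Elovl6 at -0.72, Fads1 at -0.49, Scd2 at -0.45 and Scd1 at -0.41. In steroid synthesis 5 of 8 fell (median -0.33), with Star, which delivers cholesterol to mitochondria, at -0.78, Fdx1 at -0.42, Cyp17a1 at -0.36 and Hsd3b6 at -0.35. Whether the cholesterol genes differ from any of these 3 lists was not tested.

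Few of the genes were called for diet in the other classes, which does not show that their levels were alike. Diet was tested in 9 named classes, Leydig-like cells among them; spermatogonia-like cells, of which HFD 1 held 47, fell under the minimum of 50 cells per library. The median log2 ratio of the genes tested was -0.26 in Sertoli-like (20 genes, -0.057 without HFD 2) and -0.095 in early spermatocyte-like cells (18, -0.24 without HFD 1). It was -0.058 in pachytene or later spermatocyte-like (30, -0.029 without ND 2), -0.055 in round spermatid-like (30) and -0.034 in elongating spermatid-like cells (25, -0.098 without HFD 1). It was 0.27 in macrophage-like (7), 0.15 in fibroblast or peritubular-like (4) and -0.014 in lymphocyte-like cells (3), and leaving out 1 library at a time moved it to 0.12 (without ND 1) to 0.52 (without HFD 1), to -0.17 (without HFD 2) to 0.23 (without ND 2) and to -0.017 (without ND 2) to 0.12 (without HFD 1), so that its sign turned in the last 2 classes. The median of all genes in these 8 classes lay between -0.0069 and 0.0089. For the synthesis enzymes alone the median was -0.33 in Sertoli-like (10 genes) and -0.19 in early spermatocyte-like cells (9). It was -0.079 in pachytene or later spermatocyte-like (17), -0.091 in round spermatid-like (18) and -0.034 in elongating spermatid-like cells (15). In each of the remaining classes only 1 synthesis enzyme was tested. These medians were not recomputed with a library left out. In pachytene or later spermatocyte-like cells 1 of 30 genes tested was lower and 0 higher, against 1.44% and 2.22% of all genes. It was Hmgcs1, at 13.1 CPM in HFD 1 and HFD 2 and at 15.6 and 16.2 CPM in ND 1 and ND 2 (log2 ratio -0.28, SE 0.06, edgeR adjusted p = 0.028). In round spermatid-like cells 1 of 30 was lower and 0 higher, against 1.41% and 1.07%. It was Cyp51, at 141 and 140 CPM on HFD and 157 and 155 CPM on ND (log2 ratio -0.15, SE 0.03, edgeR adjusted p = 0.033). Neither call was made by DESeq2, and in 8 and 7 of 14 other settings, respectively, it was lost. A share of 1 in 30 is near these backgrounds. Markers moved in both classes too. In pachytene or later spermatocyte-like cells 2 of 6 Leydig markers (Insl3, Cyp17a1) and 4 of 9 round spermatid, 2 of 9 elongating spermatid (Gapdhs, Prm3) and 1 of 5 tested Sertoli markers (Clu) were lower on HFD, and 3 of 10 of the class's own markers were higher. In round spermatid-like cells 3 of 9 own markers were lower (Sun5, Tex36, Lyzl1), and so was Dcn of 6 tested fibroblast or peritubular markers. Of 10 pachytene markers 2 were higher (Aurka, Pou5f2) and 1 lower (Spag6). Their part in these 2 calls was not tested.

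In the other 6 classes edgeR called 0 of the genes in either direction, and DESeq2 and limma also called 0. In elongating spermatid-like cells, where 6.25% of all genes passed the adjusted test, 4 of 25 genes tested were lower and 0 higher at an unadjusted p under 0.05, as were 10.6% and 11.1% of all genes. Lipe, highest in this class, stood at 179 and 178 CPM on HFD and 195 and 196 CPM on ND, without overlap, for a log2 ratio of -0.13 ± 0.04 (SE) and an edgeR adjusted p of 0.090. Here 3 of 9 round spermatid markers (Tex36, Spaca3, Tssk1) and 1 of 9 own markers (Tnp2) were lower on HFD. Of 10 pachytene markers 3 were higher (Aurka, Tbpl1, Pou5f2), and so was 1 of 7 tested early spermatocyte markers (Sycp3). Their part in the Lipe ratio was not tested. In Sertoli-like cells 0 of all 10089 genes passed the adjusted test, and without adjustment 1 of 20 genes was lower and 0 higher, against 3.66% and 1.92% of all genes. In early spermatocyte-like cells 0.107% of all genes passed, and without adjustment 1 of 18 was lower and 0 higher, against 3.8% and 4.79%. In macrophage-like cells 1.04% passed, and without adjustment 0 of 7 were lower and 1 higher, against 5.09% and 4.21%. Without adjustment 0 were lower or higher among 4 genes in fibroblast or peritubular-like cells (2.37% and 1.91% of all genes; 0.0273% passed the adjusted test) and among 3 genes in lymphocyte-like cells (4.64% and 2.9%; 0.599%).

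The ends of the range in each class were low genes in most cases. In Sertoli-like cells they were Fdps, at 16.1 and 21.7 CPM in HFD 1 and HFD 2 and 28.5 and 27.4 CPM in ND 1 and ND 2 (log2 ratio -0.56, SE 0.26), and Lipe, at 105 and 86.1 against 86.8 and 79.6 CPM (0.20, SE 0.16). Fdps did not overlap between diets and Lipe did. In early spermatocyte-like cells Lss stood at 7.92 and 7.19 CPM on HFD and 16.3 and 17.7 CPM on ND, from 6 UMIs in each HFD library (log2 ratio -1.16, SE 0.48, edgeR adjusted p = 0.44), and Sc5d at 19.8 and 25.2 against 18.2 and 19.6 CPM (0.26, SE 0.35). In macrophage-like cells Npc1 stood at 71.7 and 64.0 CPM on HFD and 23.4 and 28.2 CPM on ND, from 5 to 14 UMIs per library (log2 ratio 1.37, SE 0.45, edgeR adjusted p = 0.28). The diets did not overlap for it, and Abcg1 likewise stood at 97.3 and 96.0 against 46.8 and 76.4 CPM (0.62, SE 0.35). At the other end Fdft1 stood at 143 and 181 against 136 and 257 CPM (-0.31, SE 0.29). Markers in macrophage-like cells differed too. The Leydig list summed to 142 and 155 CPM on HFD and 75.8 and 58.9 CPM on ND, and the Sertoli list to 276 and 258 against 208 and 166 CPM. The class's own list summed to 11810 and 13190 against 15580 and 14400 CPM, with 1 of 8 lower (Lyz2). Their part in these ratios was not tested.
In elongating spermatid-like cells Lss stood at 0.730 and 0.538 CPM on HFD and 1.06 and 1.16 CPM on ND (log2 ratio -0.79, SE 0.38), and Abca1 at 0.730 and 1.08 against 0.532 and 0.578 CPM (0.68, SE 0.42). In pachytene or later spermatocyte-like cells Abca1 stood at 0.202 and 0.238 against 0.462 and 0.433 CPM (-1.02, SE 0.35) and Npc1 at 0.440 and 0.366 against 0.180 and 0.289 CPM (0.77, SE 0.37). In round spermatid-like cells Mvd stood at 0.396 and 0.438 against 0.627 and 0.795 CPM (-0.77, SE 0.32) and Acat2 at 1.59 and 1.16 against 1.07 and 1.05 CPM (0.38, SE 0.23). None of these 6 passed the test, and all were at or below 1.59 CPM. In fibroblast or peritubular-like cells Fdft1 stood at 136 and 198 against 198 and 195 CPM (-0.24, SE 0.31) and Insig2 at 143 and 95.3 against 71.2 and 106 CPM (0.40, SE 0.41). In lymphocyte-like cells Npc2 stood at 211 and 125 against 209 and 205 CPM (-0.26, SE 0.30) and Insig2 at 116 and 141 against 95.6 and 63.2 CPM (0.69, SE 0.40), the latter without overlap.

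The difference between the diet change in Leydig-like cells and that in another class was tested within libraries, with the library as a block, in 1 fit of both classes with TMM scaling over both. Against pachytene or later spermatocyte-like cells, 11 of 32 genes had a lower log2 ratio in Leydig-like cells, where 1.11% of all genes did: Insig1, Soat1, Lss, Idi1, Acat2, Sc5d, Fdft1, Npc2, Cyp51, Sqle and Hmgcs1. Against round spermatid-like cells 7 of 32 did (0.431% of all genes): Insig1, Soat1, Sc5d, Idi1, Hmgcs1, Npc2 and Cyp51. Against elongating spermatid-like cells 2 of 32 did (0.328%), Insig1 and Idi1. The name of the pachytene or later spermatocyte-like class is weak in part. A cluster of 3682 of its cells scored 0.0269 on the pachytene markers and 0.118 on the early spermatocyte markers. It was named through 1 pachytene marker, Piwil1, among its top 10 genes. The class's other cluster, of 3456 cells, scored 0.4485 on the pachytene markers. The count against pachytene or later spermatocyte-like cells depended on the scaling. With TMM factors from each class alone, an alternative added after seeing the data, 7 of 32 were lower (Lss, Cyp51, Sqle and Hmgcs1 lost their calls), where 0.456% of all genes were lower and 0.736% higher, against 1.11% and 0.156% with joint scaling. The same scaling gave 7 against round (0.495% of all genes) and 3 against elongating spermatid-like cells (0.493%), Cyp51 being added. No gene had a higher ratio in Leydig-like cells at the adjusted threshold in these 3 tests, and 1, 0 and 1 did without adjustment, in the same order, where 3.58%, 6.55% and 6.98% of all genes did. The members of a pair share libraries, and the 3 tests share the Leydig-like sums, so they are not independent of each other.
Insig1 showed the widest differences, with log2 ratios of -1.37 in Leydig-like, -0.10 in pachytene or later spermatocyte-like, 0.00 in round and -0.14 in elongating spermatid-like cells. For Soat1 the ratios in the first 3 of these classes were -0.65, 0.07 and 0.07, and for Idi1 they were -0.61, -0.01 and 0.00, with 0.18 in elongating spermatid-like cells. Hmgcs1 and Cyp51 had ratios below 0 in every one of these classes, smaller in germ cells: -0.54 in Leydig-like cells against -0.28 and -0.11 for Hmgcs1, and -0.52 against -0.12 and -0.15 for Cyp51, in pachytene or later spermatocyte-like and round spermatid-like cells. Against Sertoli-like, early spermatocyte-like, fibroblast or peritubular-like, lymphocyte-like and macrophage-like cells edgeR called 0 of the genes, where it called 0.00788%, 0.0328%, 0.0443%, 0.00889% and 0.152% of all genes lower in Leydig-like cells. These tests held 31, 31, 31, 32 and 32 of the genes. In the other class alone only 20, 18, 4, 3 and 7 passed the count filter. Without adjustment 3, 4, 0, 1 and 3 had a lower ratio in Leydig-like cells, where 2.33%, 1.57%, 2.16%, 2% and 3.51% of all genes did. A higher ratio was found for 0, 0, 0, 1 and 0, where 3.51%, 5.82%, 3.46%, 2.36% and 5.09% of all genes had one. Those classes held few UMIs of these genes, so these counts say little about them. The absence of calls does not show that their diet change was alike.

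**Figure D4:**
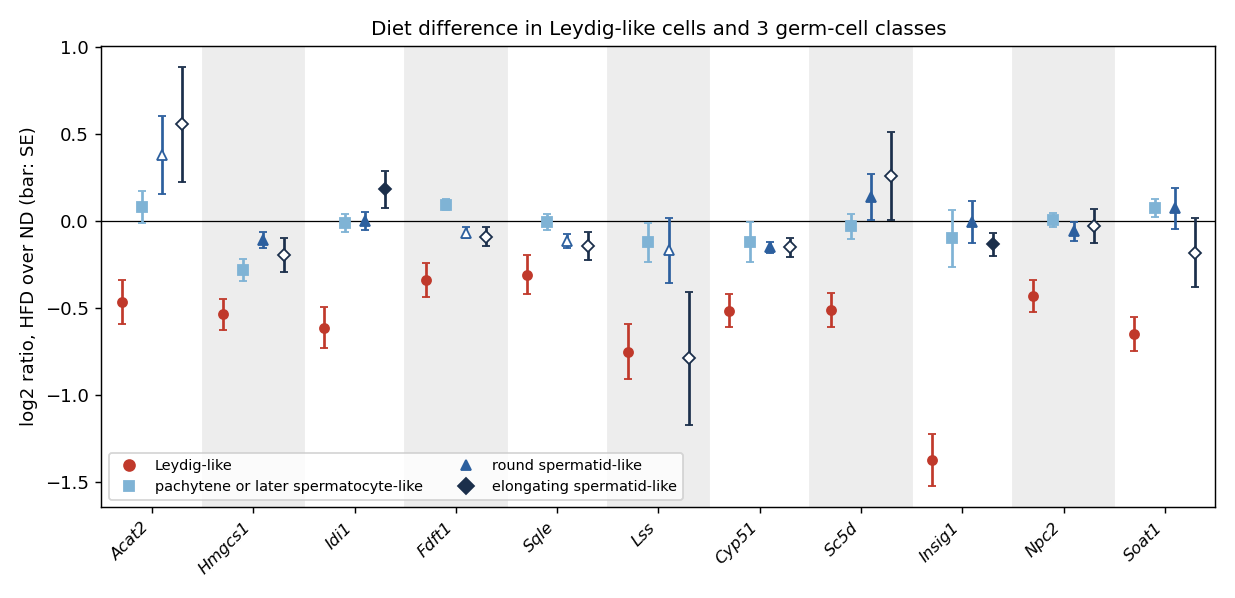
Log2 ratio of HFD over ND with its standard error for the 11 genes whose diet change differed between Leydig-like cells and at least 1 germ-cell class; filled blue symbols mark the classes for which that difference had an edgeR adjusted p under 0.05 with joint scaling. The red Leydig-like points lie between -1.37 and -0.31, and the germ-cell points lie nearer to 0 than the Leydig-like point of the same gene except those of Acat2 and Lss in elongating spermatid-like cells.

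In the sum over all kept cells, the diets differed for many genes of the testis, and the cholesterol genes are to be read against that. Of the 32 genes, 17 were lower and 1 was higher on HFD, where 18.9% and 15.3% of 25470 genes were called so. Their median log2 ratio was -0.17 and that of all genes -0.02. The largest falls were those of Hsd17b7, at 1.37 and 1.29 CPM in HFD 1 and HFD 2 and 2.43 and 2.28 CPM in ND 1 and ND 2 (log2 ratio -0.82, SE 0.11), and of Msmo1, at 5.2 and 5.2 CPM on HFD and 9.0 and 9.3 CPM on ND (-0.81, SE 0.06). The gene that rose was Insig2, at 95.3 and 95.7 CPM on HFD and 87.5 and 86.5 CPM on ND (log2 ratio 0.13, SE 0.04, edgeR adjusted p = 0.015), and the upper end of the range was Abcg1, at 0.333 and 0.373 against 0.241 and 0.305 CPM (0.37, SE 0.22), which did not pass. For a gene read mainly in Leydig-like cells, fewer such cells and less RNA per cell cannot be told apart in this sum.
The germ-cell makeup of the sum also differed: pachytene or later spermatocyte-like cells gave 38.1% and 40.4% of UMIs in the HFD libraries and 29.2% and 30.6% in the ND libraries, and round spermatid-like cells gave 24.1% and 23.2% against 29.2% and 29.4%. In the sum 8 of 9 round and 8 of 9 elongating spermatid markers were lower and 7 of 10 pachytene markers higher. Of the Leydig markers 6 of 6 were lower (median log2 ratio -0.80), as were 8 of 9 Sertoli and 4 of 8 macrophage markers, with 0 higher in these 3 lists. For genes whose level differs between these classes, such as Cyp51, makeup and level per cell cannot be told apart here.
With the Leydig-like cells left out of the sum, 8 genes were lower and 3 higher, where 16.4% and 13.3% of all genes were, and the median was -0.05. Msmo1 was then at a log2 ratio of -0.42 and Cyp51 at -0.38, both still past the test (Cyp51 was at -0.15 within round spermatid-like cells), whereas Abca1 went from -0.53 to -0.21 and Ebp from -0.63 to -0.39 and no longer passed. Sc5d changed sign, from -0.16 to 0.14. Abca1 thus fell in the whole sum while its level within Leydig-like cells overlapped between the diets. Another setting gave the 9 tested classes equal weight in every library, with unnamed and spermatogonia-like cells left out and limma as the test. Classes with few UMIs then counted as much as large ones. In it 0 of the 32 were called, where 0.0118% of all genes were lower and 0 higher. On the plain sum limma called 16 lower and 1 higher.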

How the data were processed

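Single-cell RNA libraries of mouse testis (2 HFD, 2 ND, by the treatment labels) were used. Per the file headers, the deposited matrices hold whole-number UMI counts, 1 row per gene and 1 column per barcode, and the values are not normalised. The header gives 3.0.2 as the software version, and the submitters' processing notes name mm10. Aligner, annotation and barcode filters are not given in the sources used here. All 55450 gene IDs and symbols matched GENCODE M21 (GRCm38), from which coordinates come. The dense copies of the matrices were not used.

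Barcodes under 200 genes or above 20% mitochondrial UMIs were dropped (13 to 42 per library), and 421 to 853 doublets called by Scrublet (scanpy 1.11.5, expected rate 0.1) were removed. Cells of all libraries were clustered together on 2000 variable genes without the 32 genes and related lists, 30 principal components and 15 neighbours (Leiden, resolution 1; sub-clusters at 0.5). A cluster took the class of highest mean marker score, or one within 0.15 of it with more markers among the cluster's top 10 genes. It stayed unnamed if its top 10 genes held more markers of another class, or held none of its own with a score under 0.8 or a relative median UMI count under 0.5. These limits were set after the clusters had been seen, and 42.2% to 47.0% of cells per library stayed unnamed, mostly of low depth.

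UMIs were summed per class and library and tested with edgeR 4.0.16 (filterByExpr, TMM, quasi-likelihood; Benjamini-Hochberg over all genes tested, threshold 0.05), limma 3.58.1 and DESeq2 1.42.0 being alternatives. Each SE is the size of the log2 ratio divided by the square root of its edgeR quasi-likelihood F, with 2 libraries per diet. The spread in that F is drawn toward that of all genes, so it is not that of the gene's own libraries alone. On counts simulated for Leydig-like cells (11415 genes), the edgeR step recovered 54 of 100 genes changed 1.5-fold and 96 of 100 changed 2-fold, with 10 false calls. Only genes with a mean of at least 20 CPM were changed, so recovery at lower levels, such as those of Npc1 and Nr1h3, was not tested. Labels number the libraries, but same-numbered ones did not deviate together (correlations -0.065 to 0.089), so no pairing was used. Values in every library are given for genes called in any class and for those at the ends of each range; of other lists, up to 4 called genes per direction with at least 20 CPM are named, and some that this rule names are not reported here. The 32 genes, lists and tests were chosen with earlier results of these data known, so they are no independent support for those results.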

Additional observations from a re-analysis of the deposited data

Results flagged for a closer look

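The diet change of 11 cholesterol genes differed between Leydig-like cells and germ-cell classes by the edgeR test of the difference itself, with the library as a block. All values are the log2 ratio of HFD over ND in Leydig-like cells minus that in the other class, from 1 fit of both classes with TMM scaling over both, so they are not the exact differences of the ratios fitted per class. Against pachytene or later spermatocyte-like cells the differences were -1.37 for Insig1, -0.82 for Soat1, -0.72 for Lss, -0.70 for Idi1, -0.64 for Acat2, -0.58 for Sc5d, -0.53 for Fdft1, -0.53 for Npc2, -0.49 for Cyp51, -0.40 for Sqle and -0.35 for Hmgcs1. Against round spermatid-like cells they were -1.34 for Insig1, -0.69 for Soat1, -0.62 for Sc5d, -0.58 for Idi1, -0.40 for Hmgcs1, -0.34 for Npc2 and -0.33 for Cyp51. Against elongating spermatid-like cells they were -1.18 for Insig1 and -0.73 for Idi1. With TMM scaling within each class, the difference from pachytene or later spermatocyte-like cells did not pass for Lss (-0.63), Cyp51 (-0.40), Sqle (-0.30) and Hmgcs1 (-0.26). Pachytene markers, which were higher on HFD in Leydig-like cells, move with these values, and their part was not tested. Groups of 2 libraries allow no search for single outlying libraries.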

How the results depend on the processing

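Of 451 recomputed counts and medians, 369 stayed near their main value (a count within 1.5 times, a median within the spread between replicates). The 369 include every count that was 0 and stayed 0, as in most classes. The total therefore says little about the Leydig-like calls. All Leydig-like genes called kept their direction in every setting that gave them an adjusted p. The causes of the shifts below were not tested. Where the 32 genes were allowed in clustering, the related gene lists were allowed with them. In Leydig-like cells (16 genes lower, median log2 ratio -0.40) the number lower was 7 with DESeq2, which gave no adjusted p for Insig1, Scap, Acat2, Mvd, Lss, Hsd17b7 and Stard4. It was 2 with doublets kept (median -0.33), 6 with the 32 genes allowed in clustering (-0.50) and 1 with the marker gate (-0.49). It was 1 with that gate less the sub-cluster rich in HFD 1, and 5 in cells with less germ-cell marker RNA (-0.28). The last 2 settings were added after seeing the data. In the whole testis (17 lower, 1 higher, median -0.17), leaving out Leydig-like cells gave 8 lower and 3 higher (median -0.052) and turned Sc5d to 0.14. Equal weight of the 9 tested classes, without unnamed and spermatogonia-like cells and with limma, gave 0 lower and 0 higher. Limma on the plain sum gave 16 and 1. The equal weight turned Abca1 to 0.12, Scarb1 to 0.049 and Lipe to 0.049. DESeq2 gave a median of -0.15, and doublets kept 2 higher (15.4% of all genes). In pachytene or later spermatocyte-like cells the 1 lower call became 0 with DESeq2, without a filter, with the genes allowed in clustering and at resolution 2, and 3 of 30 with doublets kept, where 12.2% of all genes were lower; in round spermatid-like cells it became 0 with DESeq2, with library totals, without a filter, with doublets kept and with the genes allowed. Medians moved to -0.086 (library totals), -0.042 (limma) and -0.095 (doublets) in pachytene or later spermatocyte-like cells. In elongating spermatid-like cells they moved to 0.016 (library totals), -0.14 (no filter), -0.095 (doublets), -0.052 (genes allowed) and -0.061 (resolution 2), and a common floor of UMIs gave 2 of 25 lower (5.08% of all genes). In Sertoli-like cells they moved to -0.30 (no filter), -0.15 (doublets), -0.20 (floor) and -0.21 (genes allowed), in macrophage-like cells to 0.10 (no filter), 0.19 (floor) and 0.50 (genes allowed), and in lymphocyte-like cells to 0.14 (no filter). Treating the sums of a library as independent reduced the 11 genes that differed from pachytene or later spermatocyte-like cells to 7 (0.539% of all genes, from 1.11%), and so did TMM scaling within each class (0.456%), added after seeing the data.

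With the replicate number as a block, 10 genes were lower in Leydig-like cells (1.02% of all genes) and 2 higher in the whole testis (18% of all genes); other counts stayed within 1.5 times. The labels give only shared numbers, and same-numbered libraries did not deviate together (correlations -0.065 to 0.089).

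Leaving out 1 library at a time, which leaves a lone library assumed to vary like the other diet's pair, gave 7 (without HFD 1) to 15 lower genes in Leydig-like cells (median -0.43 to -0.33) and 13 to 16 lower and 0 to 2 higher in the whole testis (median -0.20 to -0.15), where 11.2% to 17.9% of all genes were lower and 8.26% to 14.3% higher. In round spermatid-like, elongating spermatid-like, pachytene or later spermatocyte-like and macrophage-like cells the few calls did not hold steady in these fits. Medians ranged from -0.24 to -0.057 in Sertoli-like, -0.24 to -0.069 in early spermatocyte-like, -0.098 to -0.014 in elongating spermatid-like, -0.17 to 0.23 in fibroblast or peritubular-like, -0.017 to 0.12 in lymphocyte-like, 0.12 to 0.52 in macrophage-like and -0.073 to -0.029 in pachytene or later spermatocyte-like cells.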
